A study of Mus musculus with 6 samples.

Results

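MT and ORR1 elements are the rodent branches of the MaLR retrotransposons (mammalian apparent LTR retrotransposons), and their RNA was compared between mouse embryonic fibroblasts lacking β-actin and wild-type fibroblasts. Members were all rows of the repeat family ERVL-MaLR whose name starts with MT or ORR1. There were 49 of them among 1336 rows in all, 20 MT and 29 ORR1, and all 49 passed the filter on low counts, as did 1193 of the 1336. Each row is a repeat subfamily and its value is the sum of reads over all of its genomic copies, so no row has a chromosome position of its own and no sequence is shown.

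Samples were 3 β-actin knockout libraries (KO, genotype Beta actin KO, Actb-/-) and 3 wild-type libraries (WT). Both genotypes were fibroblasts of strain BALB/c from embryos labelled 10.5 days old, and the series calls the 3 samples of a genotype biological replicates without saying whether they came from separate embryos. Total RNA was depleted of ribosomal RNA before sequencing. Protein-coding genes are not among the rows, so neither Actb nor fibroblast markers were analysed here.

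A MaLR element that is complete carries an LTR (long terminal repeat, which holds promoter sequence) at each end and an internal region between them, here the rows ending in -int. The internal region does not code for a reverse transcriptase, and the elements are thought to have moved with enzymes of their ERVL relatives. Most copies in the mouse genome are solitary LTRs. Letters run from younger to older subfamilies, MTA to MTE and ORR1A to ORR1G. MT and ORR1 LTRs are known as promoters in mouse oocytes and early embryos, where MTA and MTC LTRs start chimaeric transcripts of host genes. In fibroblasts, many copies lie in introns and untranslated regions of transcribed genes, and a read from such a copy does not show where transcription began.

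Total counts ran from 9191049 to 19288620 in KO libraries and from 7708630 to 17937809 in WT libraries, of which the 3 rRNA rows took 52.9% to 84.8% and 32.4% to 84.1%. The exact 95% binomial interval of the lowest share, in WT replicate 1, was 32.38% to 32.45%, and such intervals cover counting error only. Levels are therefore given as normalized CPM, counts scaled to an effective library size set by TMM (trimmed mean of M-values) over all rows and not by rRNA. The 48 members other than MTB held 105595 to 261169 counts in KO libraries and 99792 to 317113 in WT libraries. Member rows were deep: the mean count per library had a median of 2088 over the members and 219 over all tested rows.

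One row was set apart because earlier results had shown its level to follow rRNA. MTB, a younger MT LTR, had 181677, 54754 and 150636 counts in KO replicates 1, 2 and 3, against 28138, 161768 and 133367 in WT replicates 1, 2 and 3. Its level was 22258, 2719 and 10161 normalized CPM in the KO libraries, against 1168, 21038 and 9282 in the WT libraries. Highest and lowest library differed 19.1-fold, the genotypes overlapped over nearly the whole range, and the order of the 6 libraries was that of their rRNA counts. Set against rRNA, MTB was nearly level: 11.1, 11.3 and 11.4 MTB counts per 1000 rRNA counts in KO replicates 1, 2 and 3, and 11.3, 10.7 and 11.7 in WT replicates 1, 2 and 3. The exact 95% interval was 11.05 to 11.15 in KO replicate 1 and 10.68 to 10.78 in WT replicate 2, a difference beyond counting error. Not all libraries differed so: the intervals of KO replicate 2 (11.18 to 11.37) and WT replicate 1 (11.13 to 11.39) overlapped. Highest and lowest ratio differed 1.09-fold. Against single rRNA rows the ratio was less even. It was 18.9 to 23.5 MTB counts per 1000 counts of SSU-rRNA_Hsa, the small-subunit rRNA. For LSU-rRNA_Hsa, the large-subunit rRNA, it was 21.6 to 27.8. Against 5S, the third rRNA row, it was not level, from 73276 per 1000 in WT replicate 1 to 511924 in WT replicate 2. The normalized CPM of 5S differed 2.98-fold between highest and lowest library, so MTB followed the SSU and LSU rows and not 5S.

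MTB per 1000 rRNA counts averaged 11.3 ± 0.146 in KO and 11.2 ± 0.507 in WT (SD, n = 3 each), given as a description because MTB was chosen for its relation to rRNA in these libraries. The normalized level of MTB had a log2 fold change of 0.16 (standard error, SE, 0.95; edgeR adjusted p = 0.943). Its 95% interval, -2.01 to 2.33, ran from 0.247 to 5.03 times the WT level. MTB took 17.3% to 63.2% of all member counts in KO libraries and 8.15% to 61.8% in WT libraries, with an exact 95% interval of 8.06% to 8.24% in WT replicate 1. No other member behaved this way. In the remaining 48 rows the highest library was 1.03 to 1.56 times the lowest in normalized CPM, with a median of 1.15. MTB_Mm, the other LTR row of the MTB group, was at 209, 224 and 229 normalized CPM in KO libraries and 234, 226 and 230 in WT libraries. The rows MTB-int and MTB_Mm-int were also steady, within 1.23-fold and 1.16-fold. MTB is left out of the sums and counts that follow unless named.

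**Figure D1:**
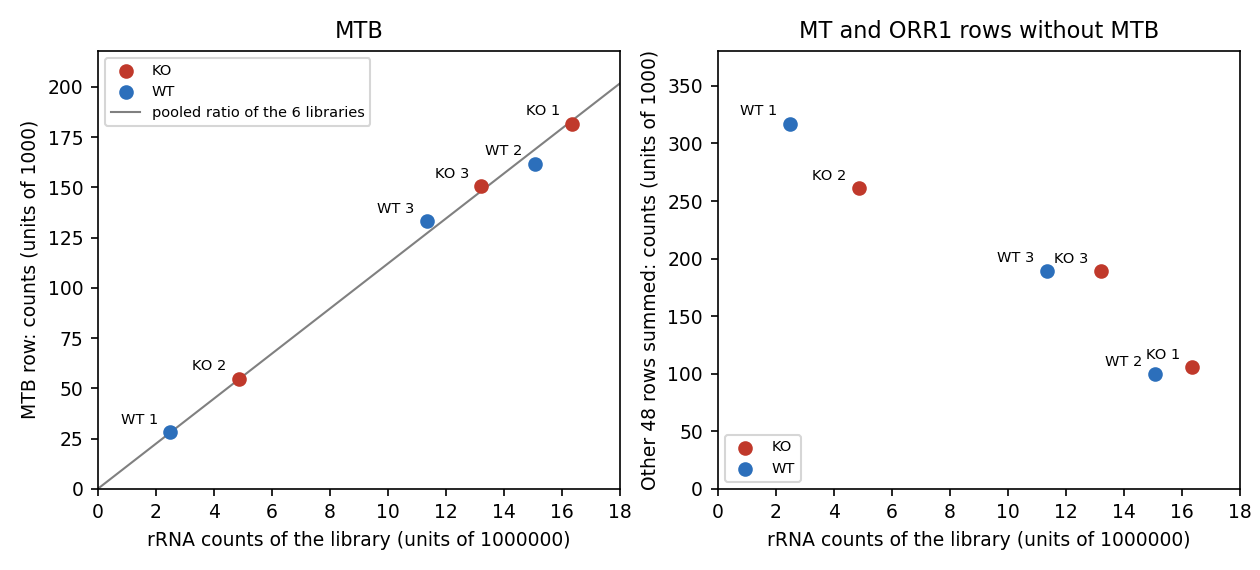
Left, counts of the MTB row (y axis, units of 1000) against the rRNA counts of the same library (x axis, units of 1000000), with a grey line at the pooled ratio of the 6 libraries. Right, the summed counts of the other 48 MT and ORR1 rows (units of 1000) on the same x axis. Each point is 1 library, KO in red and WT in blue. MTB lies on a line through 0, up to 181677 counts in KO replicate 1 and down to 28138 in WT replicate 1. The sum of the other rows is highest where rRNA is lowest, in KO replicate 2 and WT replicate 1.

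The main comparison asked which MT and ORR1 subfamilies differ in RNA between KO and WT fibroblasts. In KO cells 3 internal regions of the MT lineage were called lower, and no LTR was. They were MTE2b-int, MTE2a-int and MT-int, at 0.763, 0.770 and 0.851 of the WT level. No member was called higher in KO. All 29 ORR1 rows, from the youngest to the oldest, missed the threshold. Thus 3 of 49 rows, MTB included, or 6.12%, were called lower and 0 higher. Calls used the quasi-likelihood test in edgeR, with p adjusted by Benjamini-Hochberg over all 1193 rows and a threshold of 0.05. The background was 3.6% of all tested rows called lower and 2.18% higher in KO, 5.78% in either direction. Among -int rows, 3 of 26 members were called lower, 11.5%, against 6.35% of the 126 LTR-class rows ending in -int. Among LTR rows it was 0 of 23 members, MTB included, against 1.58% of the 505 LTR-class rows not ending in -int. The 3 called members were also all the members with an unadjusted p under 0.05. DESeq2 called 2 of these rows lower and 0 members higher, and limma-voom 1 and 0.

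MTE2b-int, an internal region of an older MT subfamily, was at 30.9, 28.0 and 29.1 normalized CPM in KO replicates 1, 2 and 3, against 39.1, 41.1 and 35.2 in WT replicates 1, 2 and 3. All KO libraries lay below all WT libraries, and the gap between the nearest libraries was from KO replicate 1 to WT replicate 3. The means were 29.3 ± 1.44 in KO and 38.5 ± 2.99 in WT (SD, n = 3 each), a log2 fold change of -0.39 (SE 0.07, edgeR adjusted p = 0.0179).

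MTE2a-int, its sister row, was at 43.1, 42.9 and 37.9 normalized CPM in the KO libraries and 49.3, 59.3 and 52.4 in the WT libraries. Here too the genotypes did not overlap, and WT replicate 2 was the highest library. Its log2 fold change was -0.37 (SE 0.08, edgeR adjusted p = 0.0367). MT-int, an internal region whose name has no subfamily letter, was at 44.3, 43.8 and 41.0 normalized CPM in KO and 48.7, 52.7 and 50.3 in WT. Its log2 fold change was -0.23 (SE 0.05, edgeR adjusted p = 0.0448), the smallest of the 3 falls. These rows held 252 to 1189 counts per library, fewer than most LTR rows. MTE2a-int and MTE2b-int are related and may share reads, so they may not be independent measurements.

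The 3 calls depended on single libraries. MTE2b-int missed the threshold when KO replicate 2 (log2 fold change -0.36), KO replicate 3 (-0.40) or WT replicate 1 (-0.37) was left out. MTE2a-int missed it without KO replicate 2 (-0.40) or 3 (-0.31) and without WT replicate 2 (-0.30) or 3 (-0.37), and MT-int did so without any library other than KO replicate 1, at -0.26 to -0.20. With KO replicate 2 and WT replicate 1 both removed, which had the least rRNA, no member was called, at -0.33, -0.45 and -0.26 for MTE2b-int, MTE2a-int and MT-int, with 3 members at an unadjusted p under 0.05.

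**Figure D2:**
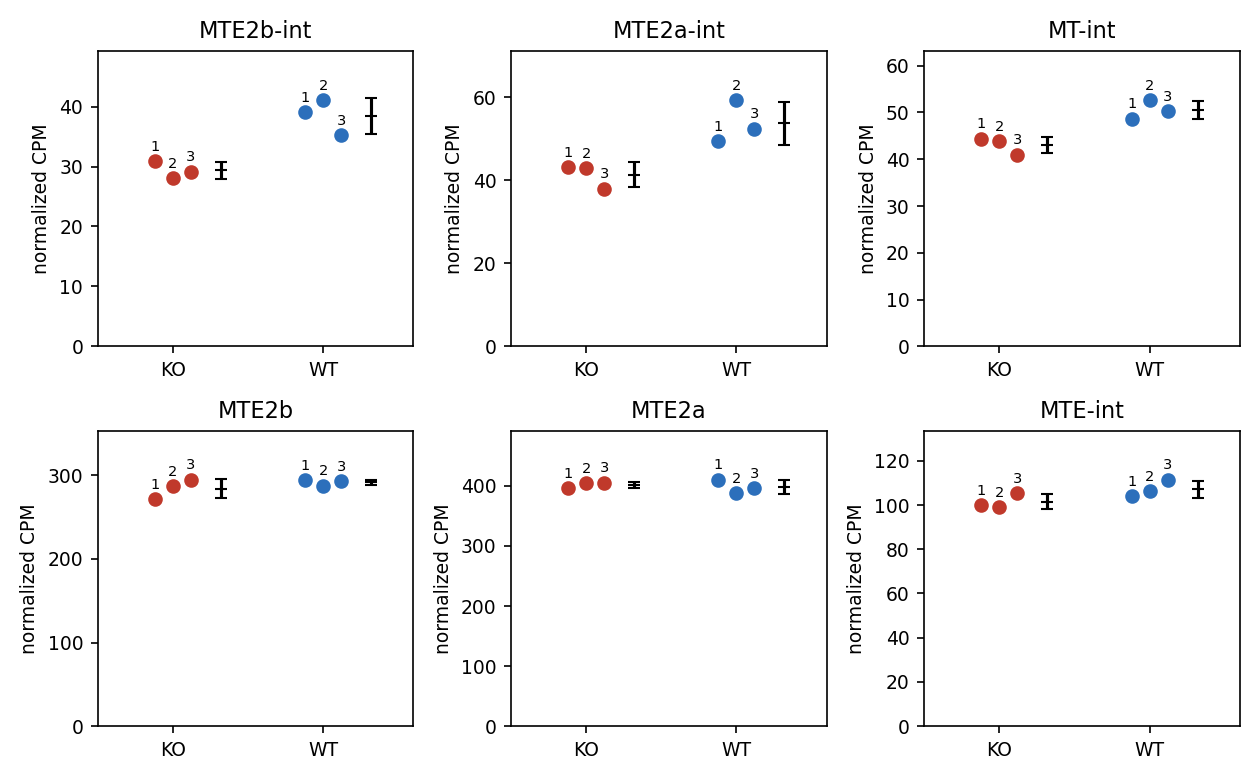
Normalized CPM (y axis, from 0) of 6 MT rows in each library, KO in red on the left and WT in blue on the right, with replicate numbers above the points. Black bars give the mean ± SD of 3 libraries. The KO points lie below the WT points in MTE2b-int, MTE2a-int and MT-int, and overlap with them in the LTR rows MTE2b and MTE2a and in MTE-int.

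The LTRs that bear the same names did not follow these internal regions past the test. The MTE2b LTR was at 271, 287 and 295 normalized CPM in KO and 294, 287 and 293 in WT, a log2 fold change of -0.04 with a 95% interval of -0.17 to 0.10 (edgeR adjusted p = 0.772). The MTE2a LTR was at 396, 404 and 405 in KO and 410, 388 and 396 in WT, with an interval of -0.12 to 0.14. Intervals of the LTRs and of the like-named internal regions did not overlap, since those of MTE2b-int and MTE2a-int were -0.55 to -0.23 and -0.55 to -0.18. These internal regions were picked because they were called, and their difference from the LTRs was not tested. The sources used here do not say how a read that matches both an LTR and an internal region was counted.

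A ratio of counts within a library does not depend on how libraries are scaled. For MTE2b, KO libraries had 0.114, 0.0976 and 0.0989 internal-region counts per LTR count, against 0.133, 0.143 and 0.120 in WT libraries. For MTE2a the ratio was 0.109, 0.106 and 0.0936 in KO and 0.120, 0.153 and 0.132 in WT. The mean KO ratio was thus 0.783 of the WT ratio for MTE2b and 0.761 for MTE2a, without overlap in either. These rows were singled out for their difference between the same libraries, so the ratios describe that difference and do not test it.

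Over the 22 subfamilies other than MTB with both an LTR and a same-named -int row, the ratio was lower in all KO than in all WT libraries in 3 and higher in 1. Among all 65 such pairs of the LTR class, which include these 22, 10 were lower, 15.4%, and 7 higher, 10.8%. The members' 3 of 22 lower was near that background, and their 1 of 22 higher was below it. The third lower pair was MTC, an LTR known to drive an oocyte form of Dicer1 in mice, at 0.198, 0.208 and 0.178 in KO and 0.209, 0.226 and 0.211 in WT. The higher pair was MTB_Mm, at 0.175, 0.144 and 0.154 in KO and 0.137, 0.139 and 0.144 in WT. In MTB_Mm the nearest libraries were KO replicate 2 and WT replicate 3, which differed little. The median KO over WT ratio was 0.978 over these 22 pairs and 0.982 over the 65.

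Along the age series of the MT lineage, no row outside those 3 passed. MTA_Mm, the youngest LTR, was at 387, 402 and 398 normalized CPM in KO and 400, 367 and 390 in WT, and these overlapped. Its internal region MTA_Mm-int was at 156, 141 and 126 in KO and 128, 131 and 134 in WT (log2 fold change 0.10, SE 0.08, edgeR adjusted p = 0.502). KO replicate 1 was the highest library of MTA_Mm-int and KO replicate 3 the lowest.

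In the MTB group, MTB-int had 108, 92.9 and 93.7 normalized CPM in KO and 102, 114 and 111 in WT, a log2 fold change of -0.15 and a 95% interval of -0.31 to 0.0079 (edgeR adjusted p = 0.266). MTB_Mm-int had 36.5, 32.2 and 35.2 in KO and 31.9, 31.5 and 33.1 in WT, with an interval of -0.04 to 0.24. The libraries of the genotypes overlapped in both, and neither row passed.

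MTC and MTD are the middle of the series. MTC stood at 694, 693 and 710 normalized CPM in KO and 682, 667 and 674 in WT. MTD had 1295, 1286 and 1271 in KO and 1264, 1243 and 1257 in WT. In both LTRs the KO libraries all lay above the WT libraries, as was so in 10% of MT rows and 12.4% of all tested rows. The differences were so small (log2 fold changes of 0.05 and 0.03, SE 0.06 and 0.07) that neither LTR passed (edgeR adjusted p = 0.692 and 0.856). Their internal regions lay at or below the WT level: MTC-int had a log2 fold change of -0.09 and a 95% interval of -0.24 to 0.05, and MTD-int one of 0.0012 with an interval of -0.11 to 0.11.

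Among the oldest group, MTE, the 4 LTR rows had log2 fold changes of -0.04 to 0.02, with intervals that all lay between -0.17 and 0.16. Only the MTE2 internal regions were called there. MTE-int was at 99.8, 99.1 and 105 normalized CPM in KO and 104, 106 and 111 in WT (log2 fold change -0.08, edgeR adjusted p = 0.405). MTEa-int was at 44.8, 43.7 and 49.0 in KO and 45.8, 43.3 and 38.3 in WT, a log2 fold change of 0.11, and MTEb-int at 57.3, 51.2 and 51.7 in KO and 49.6, 55.1 and 56.7 in WT, a change of -0.01. Both overlapped between the genotypes. MTE2a-int and MTE2b-int had 95% intervals that ended below -0.18, while MTEa-int's began at -0.07 and MTEb-int's at -0.17. The interval of MTE-int, -0.19 to 0.03, overlapped that of MTE2a-int, and differences between these internal regions were not tested.

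**Figure D3:**
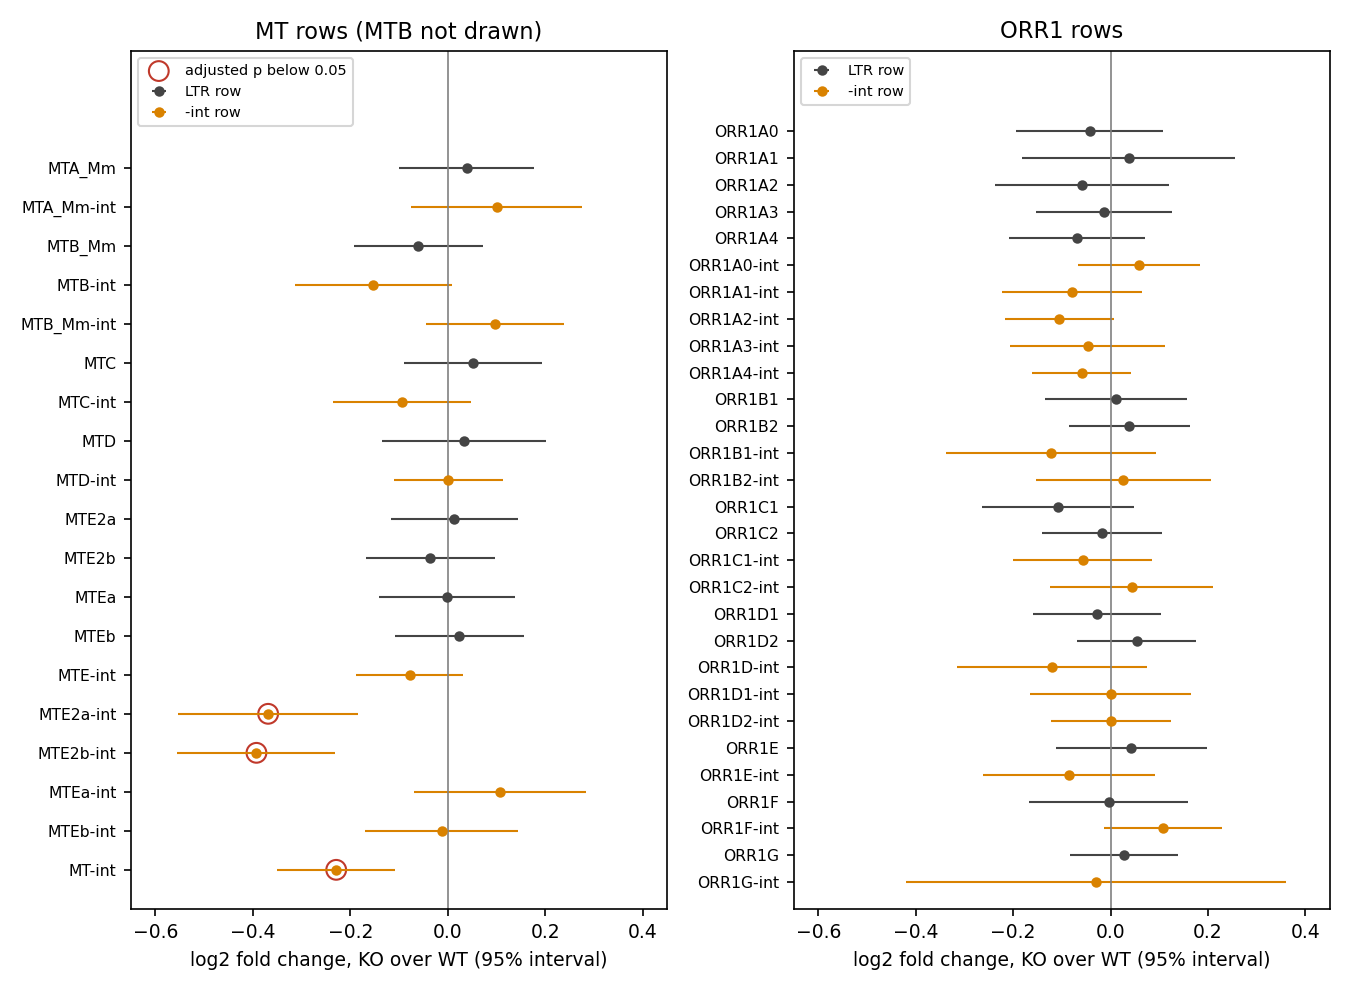
Log2 fold change, KO over WT (x axis), of 19 MT rows (left) and 29 ORR1 rows (right), with LTR rows in grey and -int rows in orange. Rows are grouped by age from young (top) to old, except MT-int. Its name has no subfamily letter, and it is drawn below the MTE rows. Bars are 95% intervals from the edgeR fit and red rings mark adjusted p below 0.05. The 3 ringed rows, MTE2a-int, MTE2b-int and MT-int, lie between -0.39 and -0.23, while all LTR points lie between -0.11 and 0.05.

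In the ORR1 lineage, LTR rows ranged from a log2 fold change of -0.11 in ORR1C1 to 0.05 in ORR1D2, and their intervals together spanned -0.26 to 0.25, that is 0.833 to 1.19 times the WT level. The lowest adjusted p among the 14 was 0.425. ORR1C1 was at 248, 261 and 272 normalized CPM in KO and 276, 266 and 299 in WT, which overlap. ORR1D2 was at 355, 354 and 357 in KO and 346, 339 and 342 in WT. It was the only ORR1 row whose KO libraries were all higher, 3.45% of ORR1 rows against 12.4% of all tested rows. ORR1D2 did not pass (edgeR adjusted p = 0.620).

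The youngest subfamilies, ORR1A0 to ORR1A4, had no row past the test. Of the 10 ORR1A rows 8 had log2 fold changes below 0, and the median was -0.05. Over all tested rows 569 of 1193 were below 0. A shift of the ORR1A rows as a group was not tested. ORR1A2, the ORR1A LTR with the highest level, was at 350, 363 and 379 normalized CPM in KO and 408, 343 and 385 in WT. ORR1A2-int was at 154, 159 and 154 in KO and 164, 168 and 171 in WT (log2 fold change -0.11, SE 0.05, edgeR adjusted p = 0.271). It was the only ORR1 row whose KO libraries all lay below WT, 3.45% of ORR1 rows against 13.4% of all tested rows. ORR1A3-int was at 496, 450 and 439 in KO and 463, 494 and 474 in WT, and KO replicate 1 was above all WT libraries.

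The ORR1B1-int row held more counts than any other member but MTB. It was at 2196, 2110 and 1961 normalized CPM in KO and 2174, 2364 and 2283 in WT, a log2 fold change of -0.12 with a 95% interval of -0.34 to 0.09 (edgeR adjusted p = 0.505). KO replicate 1 exceeded WT replicate 1, so the genotypes overlapped. Its own LTR, ORR1B1, was at 477, 499 and 506 in KO and 506, 466 and 500 in WT. In each library the internal region therefore had more counts than the LTR, 4.60, 4.23 and 3.87 per LTR count in KO and 4.30, 5.08 and 4.57 in WT. Only 3 of the 22 pairs, ORR1A1, ORR1A3 and ORR1B1, had more internal-region than LTR counts in every library. Row lengths and copy numbers were not used here, so these ratios are not rates of transcription.

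The older ORR1 subfamilies, ORR1C to ORR1G, had no row past the test either. ORR1E stood at 638, 680 and 654 normalized CPM in KO and 658, 607 and 650 in WT, and ORR1F at 703, 719 and 715 in KO and 747, 667 and 729 in WT. Both LTRs overlapped between genotypes, as did ORR1D1, with a log2 fold change of -0.03, ORR1C2, with -0.02, and ORR1G, with 0.03. Their internal regions went both ways: ORR1F-int was at 75.6, 71.8 and 70.4 in KO and 64.5, 71.4 and 66.5 in WT (log2 fold change 0.11, edgeR adjusted p = 0.293), and ORR1E-int at 112, 103 and 95.2 in KO and 101, 119 and 110 in WT (-0.09, edgeR adjusted p = 0.580). ORR1C2-int and ORR1D1-int had log2 fold changes of 0.04 and 8.5e-05. ORR1G-int, with 38 to 148 counts per library, had the widest interval of these rows, -0.42 to 0.36, or 0.747 to 1.28 times the WT level.

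Summed over rows, the MT lineage outside the MTB group came to 4368, 4413 and 4368 normalized CPM in KO libraries and 4402, 4302 and 4345 in WT libraries, a log2 ratio of 0.01. The ORR1 lineage came to 8215, 8209 and 8015 in KO and 8388, 8304 and 8474 in WT, a log2 ratio of -0.04. No KO library reached a WT library in the ORR1 sum, and its KO mean was 0.971 of the WT mean. ORR1 internal regions made up most of that gap, at 3477 ± 169 in KO and 3704 ± 136 in WT, against 4669 ± 76.7 in KO and 4685 ± 192 in WT for ORR1 LTRs (SD, n = 3 each). The -int sums overlapped, with 3634 in KO replicate 1 and 3567 in WT replicate 1, and much of their difference was the single row ORR1B1-int, without which they were 1388 ± 50.8 in KO and 1430 ± 41.6 in WT. These sums describe rows chosen with earlier results known and were not tested.

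By kind of row, the 22 LTR rows without MTB had a median log2 fold change of 0.0050, with 11 above 0 and 11 below. The 26 -int rows had a median of -0.05, with 10 above 0 and 16 below. Over all tested rows the median was 0.01, and over the 126 LTR-class rows ending in -int it was 0.00078. Of the 26 -int rows, 4 had all KO libraries below all WT libraries, 15.4%, and of the 22 LTR rows 3 had all KO libraries above, 13.6%. Over all tested rows those shares were 13.4% lower and 12.4% higher. In the opposite directions, 0 of the -int rows were higher and 0 of the LTR rows lower. Over the 48 rows of both kinds, 4 were lower, 8.33%, and 3 higher, 6.25%. Both of these shares were below those of all tested rows.

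Summed over a lineage, the balance of internal-region to LTR counts was highest within each genotype in its library with the most rRNA. In the ORR1 lineage KO replicates 1, 2 and 3 had 0.794, 0.743 and 0.699 internal-region counts per LTR count, and WT replicates 1, 2 and 3 had 0.740, 0.860 and 0.777. The highest value of each genotype was in its library with the most rRNA, KO replicate 1 and WT replicate 2, and WT replicate 1, with the least rRNA, was the lowest of WT. In KO the lowest was replicate 3, not replicate 2, which had the least rRNA of that genotype. In the MT lineage the ratio was 0.220, 0.204 and 0.197 in KO and 0.211, 0.230 and 0.220 in WT, highest within each genotype in the same libraries. Single age groups did not all share this order: ORR1G was lowest in KO replicate 1 (0.0413) and WT replicate 2 (0.0382), ORR1D was lowest of KO in replicate 1 (0.174), and MTC was higher in KO replicate 2 (0.208) than in KO replicate 1 (0.198). The part of rRNA in these ratios was not tested. With the rRNA share as a covariate, the median log2 fold change was -0.06 for -int rows and 0.02 for LTR rows, and MTE2b-int (-0.40) and MTE2a-int (-0.39) were called and MT-int was not (-0.24, edgeR adjusted p = 0.0587).

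**Figure D4:**
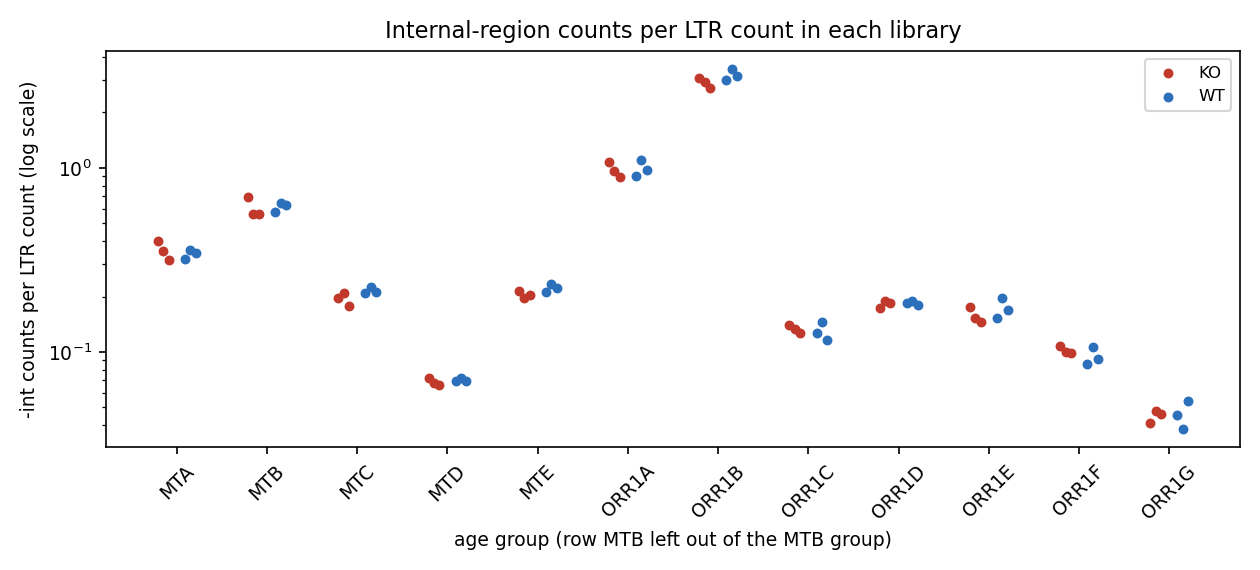
Internal-region counts per LTR count (log axis) summed within each age group, with 1 point per library, KO in red and WT in blue to its right. Row MTB is left out. Ratios run from 0.0382 in ORR1G to 3.45 in ORR1B, both in WT replicate 2, and the spread between age groups is far wider than that between genotypes.

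Compared with the older MaLR rows, MLT, MST and THE1, the rodent rows had smaller fold changes and greater depth. Of the 54 tested MLT, MST and THE1 rows edgeR called 2 lower and 0 higher, and 12 had an unadjusted p under 0.05. This older list had a median log2 fold change of 0.01 and a median absolute change of 0.14. Over the MT and ORR1 rows the median absolute change was 0.05, with a median SE of 0.06 against 0.10 in the older rows and 0.12 in all tested rows. Median counts per row were 2053 in the MT and ORR1 rows without MTB and 239 in the older rows. The older list includes 24 shallow -int rows, with a median count of 31 and a median SE of 0.26. Among LTR rows alone the median SE was 0.061 in both lists. There the median absolute change was 0.04 in the 22 MT and ORR1 rows without MTB and 0.08 in the 30 older rows. Of these LTR rows, 0 and 9 had an unadjusted p under 0.05 in edgeR. A difference between the lists was not tested.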

How the data were processed

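Per the labels' protocols, libraries came from a TruSeq Ribo-Zero kit. FastQC 0.11.5, Trimmomatic, Bowtie2 and the builds mm10 and GRCm38 are named in the submitters' processing notes. The authors deposited estimated counts, which the file names call fraction counts, per repeat row, without normalization, and all values were whole numbers. The sources used here do not give the repeat counter, its annotation, its use of strand or its treatment of reads that match several rows.

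edgeR 4.0.16 in R 4.3.3 was used for the counts: filterByExpr (143 rows removed), TMM, and the quasi-likelihood test of KO against WT over all 1193 rows, with Benjamini-Hochberg adjustment at 0.05. Standard errors and 95% intervals came from the test statistic. The procedure was tested on simulated data. Replicates differed by more than sampling noise (chi-square over degrees of freedom of at least 509 for each pair). Alternatives used DESeq2 1.42.0 and limma 3.58.1.

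Members, lists and alternatives were chosen with earlier results of these data known. Named rows were the called members, the LTR and -int row with the highest mean level of each age group, and the 10 members with the smallest p. MTB_Mm, MTE2b, MTEa-int, MTEb-int and ORR1D2 were added after their values were seen.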

Additional observations from a re-analysis of the deposited data

How the results depend on the processing

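The count of members called higher in KO was 0 under every alternative run. Members lower in KO numbered 3 as reported and 3 with no filter, 2 with DESeq2 size factors, DESeq2, a mean of at least 50 counts or the rRNA covariate, 1 without structural RNA rows or with limma-voom, 0 without the libraries lowest in rRNA, 0 with total-count scaling and 0 to 3 when a single library was left out. Calls over all rows were 69 as reported, 41 without structural RNA rows, 9 without the libraries lowest in rRNA, 0 with total counts (3 rows at an unadjusted p under 0.05, of which 0 were members) and 22 to 69 without a single library. The causes were not tested. A replicate block left 0 members lower and 24 rows called, with 3 members at an unadjusted p under 0.05. Deviations from the group means correlated at -0.55, -0.50 and 0.04 between the libraries numbered 1, 2 and 3. The highest correlations were 0.62, between the libraries with the least rRNA of each genotype, and 0.46, between those with the most. Such values do not show whether equal numbers share an origin, which is not known. The main fit paired no sample by its number.

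Total-count scaling moved the median of all rows to -0.36, the MT sum to -0.36 and the ORR1 sum to -0.41. It turned the sign of MTA_Mm-int (-0.27), MTA_Mm (-0.35), MTB_Mm-int (-0.31), MTC (-0.33), MTD-int (-0.38), MTD (-0.34), MTE2a (-0.37), ORR1B1 (-0.38), ORR1C2-int (-0.31), ORR1D1-int (-0.37), ORR1E (-0.33), ORR1F-int (-0.24) and ORR1G (-0.36), none of them called. MTD-int was at -0.0034 with no filter, -0.0021 without structural RNA rows, -0.0053 with the rRNA covariate and -0.0038 with limma-voom. ORR1D1-int was at -0.0056 with no filter, -0.00049 with a mean of at least 50 counts, -0.0031 without structural RNA rows and -0.0021 with the replicate block. MTB was at -0.31 and ORR1F at 0.017 with the rRNA covariate, and ORR1A2 at 0.011 and ORR1F at 0.033 without the libraries lowest in rRNA. Without single libraries, ranges that crossed 0 were -0.71 to 1.16 for MTB, -0.045 to 0.032 for MTD-int, -0.0082 to 0.035 for MTE2a, -0.028 to 0.035 for ORR1B1, -0.0040 to 0.090 for ORR1C2-int, -0.032 to 0.0026 for ORR1C2, -0.049 to 0.057 for ORR1D1-int, -0.054 to 0.029 for ORR1F and -0.12 to 0.13 for ORR1G-int. ORR1G-int had 38 counts in its shallowest library, the fewest of any member.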
